A study of Mus musculus with 29 samples.

Results

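The genes described here encode the factors that start translation on the ribosome (eukaryotic initiation factors, Eif1 to Eif6) and those that extend the peptide chain (elongation factors, Eef1 and Eef2), with the enzymes named after them. They were taken by name: protein-coding genes whose symbol begins with Eif1 to Eif6, Eef1 or Eef2, without the Eif4ebp genes, at a mean of at least 1 CPM (reads of a gene scaled to the same total in every library). Of 64 genes with such a name 62 met that limit, among 48023 genes counted. The lowest of the 62 was Eif5a2 at 2.52 CPM, and the pair left out were Eef1akmt3 at 0.133 and Eif4e1b at 0.00547 CPM. All 62 had enough counts to be tested in every comparison.

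RNA came from the tibialis anterior (TA) muscle of 29 male mice, 1 library each, either fed or fasted for 24 h, at 2 to 3 months of age by the labels. In M-p110αKO mice exon 1 of floxed p110α (Pik3ca), a catalytic subunit of phosphatidylinositol 3-kinase (PI3K), is removed by Cre under the human alpha-skeletal actin (HSA) promoter, which acts in muscle fibres. M-p110βKO mice carry the same Cre with exon 2 of p110β (Pik3cb) floxed, and the controls of each line carry the floxed alleles. The p110α line had 4 fed controls, 4 fed M-p110αKO, 4 fasted controls and 3 fasted M-p110αKO, and the p110β line had 3 controls in each state and 4 M-p110βKO in each. The labels place all mice on C57BL/6J. Mice with floxed p110β carry less of that background than those with floxed p110α by a genome scan in the methods, so that line, floxed gene and background cannot be told apart. The labels number the mice in 1 series and give no litter or extraction day, so p-values measure the spread between these samples. Cells other than fibres keep the floxed gene, and in whole muscle fewer cells of a type and less RNA per cell cannot be told apart.

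Libraries held 5351935 to 11653239 assigned reads, with a median of 7828636. None of the 7 markers of the muscle fibre was at 0, and their summed level was 121410–175568 CPM. Summed markers of other cells were far lower, with 6 fibroblast genes at 151.7–637 CPM and 7 adipocyte genes at 89.98–424 CPM. A pair of the 3 fasted controls of the p110β line stood apart with 387 and 424 CPM of adipocyte markers, against 89.98–206.8 in the remaining libraries, and the calls of that group without them are given beside its results.

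Translation begins when eIF2, bound to GTP and the initiator tRNA, joins the small ribosomal subunit with eIF1, eIF1A, eIF3 and eIF5, and the cap-binding complex of eIF4E, eIF4G and the helicase eIF4A brings in the mRNA. eIF2B recharges eIF2 with GTP, and 4 kinases (Eif2ak1 to Eif2ak4) slow initiation by phosphorylating eIF2. In elongation eEF1A delivers the aminoacyl tRNA, the eEF1B subunits (Eef1b2, Eef1d, Eef1g) recharge it, and eEF2 moves the ribosome along the mRNA until Eef2k, its kinase, stops it. Adult muscle fibres are known to use eEF1A2, encoded by Eef1a2, in place of the widespread eEF1A1. Insulin acts on these steps through PI3K, AKT and mTORC1.

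Levels of the 62 genes spanned 3 orders of magnitude when read per kilobase of exon, the scale on which genes can be compared. Eef2 was highest at 543 CPM per kb as a mean of the 29 libraries, followed by Eif1, which guards start-codon choice, at 509 and by Eef1a2 at 262. Eef1a1 had 93.5 CPM per kb and stood in seventh place, behind the scaffold Eif4g1 (114), the helicase Eif4a2 (106) and Eif5a (96.7), which relieves stalled ribosomes. The cap-binding protein gene Eif4e itself was at 11.6 CPM per kb. The eIF2 kinases were the lowest class, with Eif2ak1, the heme-regulated one, at 10.6 and the other 3 at 1.01–1.89 CPM per kb. Together the 62 genes took 0.938–1.22% of the reads in a library, and Eef2 and Eif1 made up 27.0% of the reads on members.

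**Figure D1:**
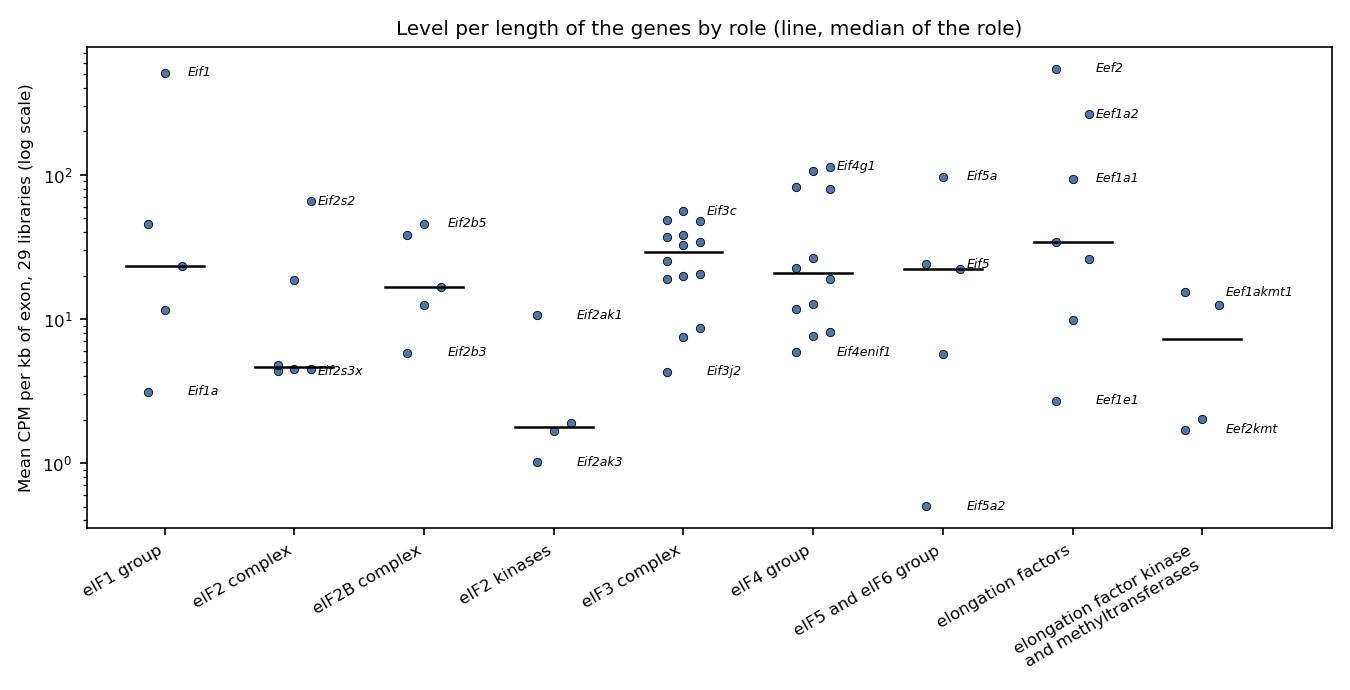
Mean CPM per kb of exon over the 29 libraries (log scale) for each of the 62 genes, as points grouped by role, with a line at the median of each role. Eef2, Eif1 and Eef1a2 lie above 262 and Eif5a2 is lowest at 0.501.

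Eef1a2 (ENSMUSG00000016349, chromosome 2, 181147653–181157014, minus strand of GRCm38) and Eef1a1 (ENSMUSG00000037742, chromosome 9, 78478449–78489151, minus strand) encode near-identical proteins from unlinked genes, Eef2 is ENSMUSG00000034994, chromosome 10, 81176631–81182498, plus strand, and Eif3a is ENSMUSG00000024991, chromosome 19, 60761117–60790658, minus strand. The 250 bases upstream of a RefSeq start (GRCm38.p6) that overlap no annotated exon are shown for these 4 genes, read 5′ to 3′ on the strand of the gene, to compare the paralogues with each other and with a gene that rose and one that holds an E-box. Capitals mark matches to the motifs listed after them.
Eef1a1, chr9:78481725-78481974, minus strand: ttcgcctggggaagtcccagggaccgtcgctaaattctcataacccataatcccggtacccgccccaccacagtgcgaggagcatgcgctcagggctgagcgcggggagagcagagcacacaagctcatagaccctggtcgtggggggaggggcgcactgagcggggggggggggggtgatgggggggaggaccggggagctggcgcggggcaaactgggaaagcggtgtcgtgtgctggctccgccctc
Eef1a2, chr2:181157016-181157265, minus strand: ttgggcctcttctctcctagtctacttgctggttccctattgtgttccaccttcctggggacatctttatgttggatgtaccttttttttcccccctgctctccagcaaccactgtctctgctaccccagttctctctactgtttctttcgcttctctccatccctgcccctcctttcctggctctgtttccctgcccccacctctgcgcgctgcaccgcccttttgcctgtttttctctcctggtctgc
Eef2, chr10:81176381-81176630, plus strand: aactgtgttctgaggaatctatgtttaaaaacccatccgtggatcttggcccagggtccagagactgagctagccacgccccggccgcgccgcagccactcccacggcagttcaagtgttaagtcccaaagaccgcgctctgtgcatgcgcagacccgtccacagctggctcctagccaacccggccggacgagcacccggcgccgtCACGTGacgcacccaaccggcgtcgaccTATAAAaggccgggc
Eif3a, chr19:60790694-60790943, minus strand: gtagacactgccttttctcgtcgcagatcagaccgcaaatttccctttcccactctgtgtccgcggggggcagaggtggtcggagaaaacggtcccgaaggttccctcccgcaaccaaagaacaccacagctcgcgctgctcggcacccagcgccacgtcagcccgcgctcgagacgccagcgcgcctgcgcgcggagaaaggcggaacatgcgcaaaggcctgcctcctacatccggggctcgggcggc

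Each window was searched on both strands for the E-box CACGTG, the cAMP response element TGACGTCA, the ATF4 element TGATGNAA, the FoxO element GTAAACA and the TATA box TATAAA. Among the 4 windows Eef2 alone held any, an E-box starting 43 bases and a TATA box starting 15 bases before the start, and they do not overlap. RefSeq windows were at hand for 50 of the 62 genes. E-boxes lay in 11 of the 50 (22%), against 10.2% of the 9362 genes with a window among those tested in the p110α line and 6.86% of all 27025 genes in the table. The 11 were Eef2, Eef2k, Eif1b, Eif3f, Eif3k, Eif4a1, Eif4e, Eif4g1, Eif4h, Eif5a and Eif5a2. The cAMP response element was in 0 of the 50 (3.10% of tested genes), the ATF4 element in 2 (2.39%), the FoxO element in 1 (2.61%) and the TATA box in 5 (8.08%). These are matches of letters and no evidence of binding.

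Fasting for 24 h changed 42 of the 62 genes in at least 1 of 4 comparisons, controls and knockouts of each line (67.7%), against 59.6% of the 12000 genes tested in both lines. Of the 62 genes, 5 rose in controls and knockouts of both lines: Eif3a and Eif3c, core subunits of eIF3, the helicases Eif4a1 and Eif4a2, and the scaffold Eif4g3. Eif4e, which binds the cap, fell in all 4 of these comparisons. The eEF1 genes Eef1a2, Eef1b2, Eef1d and Eef1g fell in 2 or 3 of the 4 and rose in none. No gene was called higher in one of these comparisons and lower in another, and 20 of the 62 were called in none. Comparisons were made with edgeR's quasi-likelihood test and adjusted p under 0.05 over all genes tested in the line.

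Set against all genes, the numbers in the p110α line were not large. In its controls 9 of the 62 rose and 9 fell (14.5% each), while 15.4% of all 12433 genes rose and 14.7% fell. M-p110αKO gave 6 rises and 6 falls (9.68% each) against 11.6% and 9.91%. In controls of the p110β line 17 rose and 6 fell (27.4% and 9.68%) against 14.5% and 12.4% of 12249 genes, and in M-p110βKO 19 rose and 13 fell (30.6% and 21%) against 19% and 18.9%. Median log2 fold changes of the 62 were 0.03 and 0.01 in controls and knockouts of the p110α line and 0.13 and 0.19 in those of the p110β line, with medians of 0.00, −0.00, −0.02 and −0.02 over all genes. With upper-quartile factors the split became 13 up and 8 down in p110β controls (all genes 11.9% and 16.1%), 17 and 17 in M-p110βKO (16.3% and 23.3%), 8 and 11 in p110α controls (13% and 17.7%) and 6 and 7 in M-p110αKO (10.6% and 10.7%). With offsets for GC content and exon length it became 16 and 2 in p110β controls (all genes 14.4% and 11.9%). M-p110βKO then had 23 and 8 (18.6% and 16.3%), and M-p110αKO 7 and 4 (11% and 9.56%). In p110α controls 4 of the 18 calls ended with the offsets (Eif1a, Eif2b2, Eif2b3 and Eef2kmt), where 13.3% of all genes rose and 14.7% fell. The test of a difference in the fasting change between M-p110αKO and controls, the interaction, called 0 of the 62 (background 0.209% higher and 0.273% lower), although an unadjusted p under 0.05 was reached by 3 upward and 3 downward, and DESeq2 called 1.

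**Figure D2:**
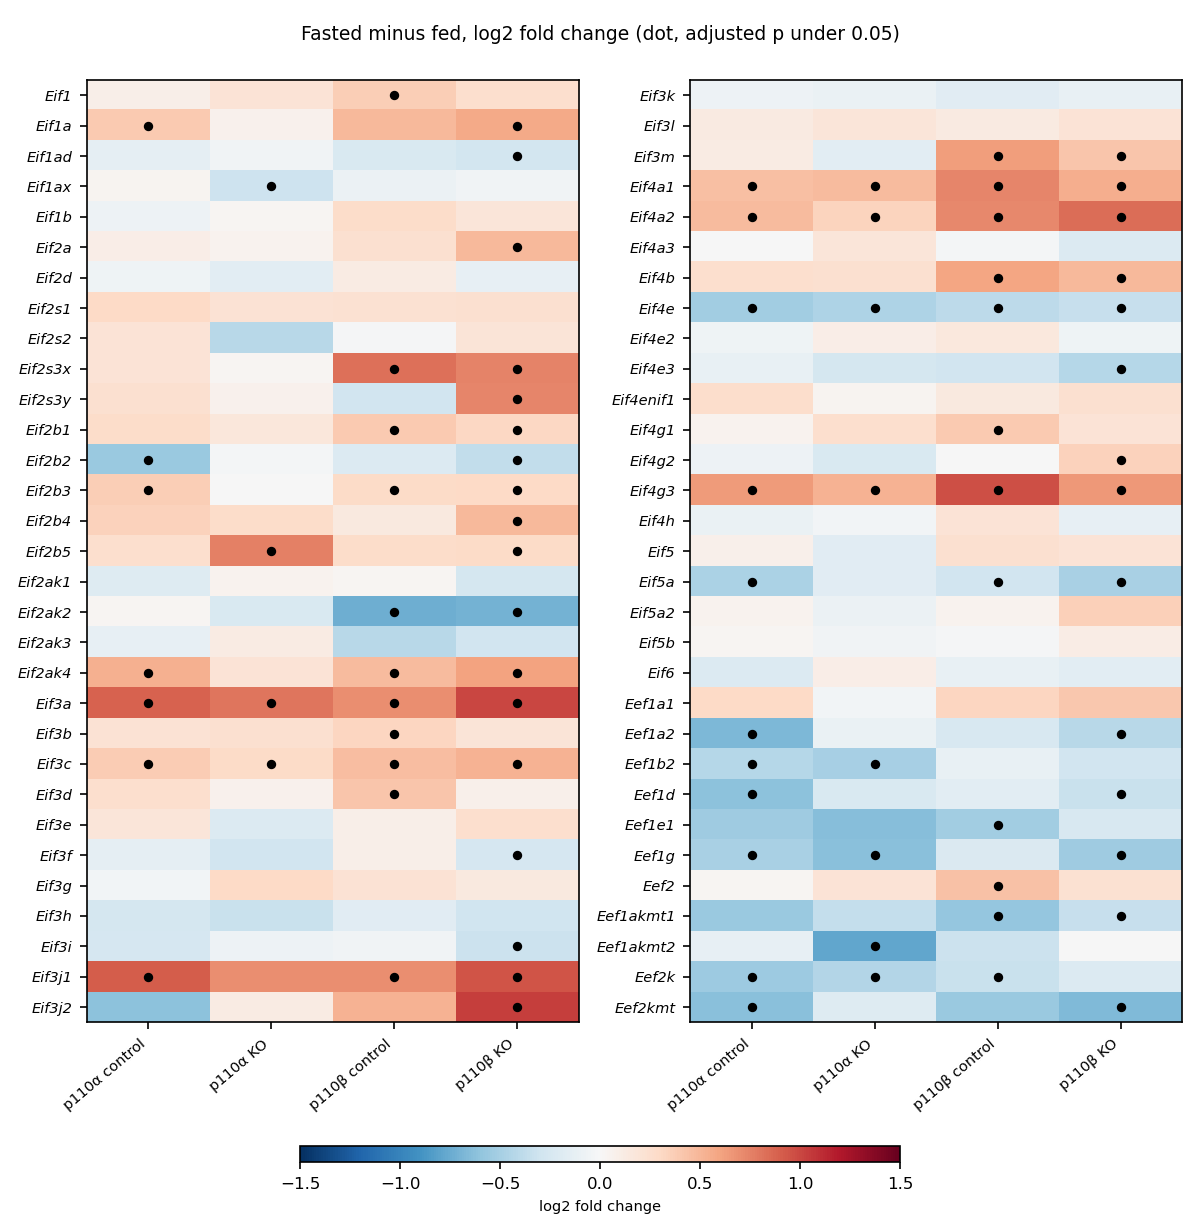
Log2 fold change of fasted against fed muscle (colour) for each of the 62 genes (rows, ordered by role) in controls and knockouts of the p110α and p110β lines (columns), with a dot where the adjusted p was under 0.05. Eif3a, Eif3c, Eif4a1, Eif4a2 and Eif4g3 are red with 4 dots, and Eif4e is blue with 4 dots.

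Eif3a, the largest subunit of eIF3, rose in all 4 comparisons. In fed controls of the p110α line its 4 libraries read 212, 246, 245 and 179.6 CPM, and in fasted controls 396, 401, 370.2 and 462. Fed M-p110αKO read 255, 227, 208 and 224 and fasted M-p110αKO 399, 354 and 443. Fed and fasted libraries did not overlap in either genotype, and the log2 fold changes were 0.88 ± 0.12 (SE, adjusted p = 2.85e-05) and 0.81 ± 0.12 (SE, adjusted p = 2.35e-04). In the p110β line controls went from 160.4, 241 and 179 to 310.0, 318 and 304 CPM and M-p110βKO from 159, 198, 181 and 179.6 to 393, 379.8, 303 and 357. Again no fasted library reached down to a fed one, with log2 fold changes of 0.70 ± 0.14 (SE, adjusted p = 0.00116) and 1.00 ± 0.12 (SE, adjusted p = 5.65e-06). The calls held in all 6 alternative fits of each comparison and without any single library.

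Other eIF3 subunits followed in part. Of the 14 eIF3 genes 3 rose in p110α controls, 2 in M-p110αKO, 6 in p110β controls and 5 in M-p110βKO, and the falls were 2 in M-p110βKO (Eif3f and Eif3i) and 0 elsewhere. Shares of all genes that rose were 15.4%, 11.6%, 14.5% and 19% in these comparisons, and 14.7%, 9.91%, 12.4% and 18.9% fell. Both falls, of Eif3f and Eif3i, lost their call without the low-count filter. Eif3c rose by 0.38, 0.28, 0.47 and 0.53 (log2, same order of groups). In M-p110αKO its call ended without the filter on low counts and in a fit of the compared groups alone. Eif3m, a subunit of the same ring, gave 0.63 ± 0.11 (SE, adjusted p = 5.50e-04) in p110β controls and 0.41 ± 0.10 (SE, adjusted p = 0.00312) in M-p110βKO, and 0.12 and −0.16 in the p110α line with no call. Eif3b and Eif3d were called in p110β controls and in none of the other 3.

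The helicase that unwinds the 5′ end of mRNA has 2 cytoplasmic forms, and both rose. Eif4a2, the major form in muscle, read 450.4, 464, 483 and 445 CPM in fed and 617, 631, 645 and 679 in fasted p110α controls, and 437, 459.6 and 459 and then 704, 784 and 728 in p110β controls. The groups were fully apart in both lines. Its log2 fold changes were 0.47 ± 0.09 (SE, adjusted p = 9.01e-04) and 0.72 ± 0.10 (SE, adjusted p = 5.31e-05), and in M-p110βKO, from 401, 429.9, 432 and 375 to 756, 746, 734 and 688 CPM, 0.84 ± 0.09 (SE, adjusted p = 1.43e-06). With GC and length offsets the p110α control value was 0.31 (adjusted p = 0.0239). In M-p110αKO, with 1 fed library at 583 beside 3 fasted ones at 582 to 676 CPM, the rise was 0.34 ± 0.10 (SE, adjusted p = 0.022) and its call was lost in 2 of 6 alternatives and in 4 of 7 fits that left out a library. Eif4a1, at 54.8 CPM on average, rose by 0.45, 0.47, 0.73 and 0.54 (log2, p110α controls, M-p110αKO, p110β controls, M-p110βKO). Eif4a3, a relative that sits on spliced mRNA, was called in none of the 4.

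Eif4e, whose protein binds the cap, fell where the helicases and Eif4g3 rose. In p110α controls it fell from 80.8, 85.9, 83.4 and 90.5 CPM when fed to 56.9, 57.8, 61.1 and 61.7 when fasted, and in M-p110αKO from 72.5, 77.0, 83.8 and 83.8 to 51.4, 61.4 and 58.9. No library overlapped in either genotype, with log2 fold changes of −0.53 ± 0.09 (SE, adjusted p = 2.68e-04) and −0.47 ± 0.10 (SE, adjusted p = 0.00252). In the p110β line the fall was −0.39 ± 0.13 (SE, adjusted p = 0.0389) in controls and −0.35 ± 0.12 (SE, adjusted p = 0.0236) in M-p110βKO, where 1 fasted library at 72.9 CPM overlapped the fed ones at 72.5–84.9. The p110β control call ended with GC and length offsets (adjusted p = 0.0569) and without the low-count filter. Eif4e3, a weak cap binder, fell in M-p110βKO (−0.42 ± 0.10 SE, adjusted p = 0.00232) and Eif4e2 was called in none.

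Among the scaffolds Eif4g3 rose in all 4 comparisons, from 178, 172, 181 and 226 to 309, 346, 252 and 274 CPM in p110α controls and from 131, 139 and 151 to 281, 273 and 267 in p110β controls. The latter groups were the farther apart, at 0.97 ± 0.13 (SE, adjusted p = 2.21e-05) against 0.63 ± 0.13 (SE, adjusted p = 0.00136), but 0 of the 62 genes passed the test of a difference between the lines' control responses (background 0.933% higher and 0.627% lower), with an unadjusted p under 0.05 for 6 upward and 2 downward and 1 call in DESeq2. M-p110αKO gave 0.52 ± 0.14 (SE, adjusted p = 0.0128) and M-p110βKO 0.65 ± 0.11 (SE, adjusted p = 1.68e-04). Eif4g1, the main scaffold, rose in p110β controls (0.39 ± 0.11 SE, adjusted p = 0.0119), a call lost with GC and length offsets, and Eif4g2, a scaffold without a cap-binder site, in M-p110βKO (0.34 ± 0.12 SE, adjusted p = 0.0319), a call that ended with the offsets (0.14, adjusted p = 0.321) and with upper-quartile factors. Eif4b, which aids the helicase, rose in both genotypes of the p110β line, by 0.59 and 0.49 (log2). Without the pair of adipocyte-rich fasted controls, which leaves 1 library in that group, 9 of the 23 calls on fasting in p110β controls were kept and 14 ended. Kept were the rises of Eif2ak4, Eif2s3x, Eif3a, Eif3d, Eif3j1, Eif4a1, Eif4a2 and Eif4g3 and the fall of Eif4e (−0.63, adjusted p = 0.0338). Among the rises that ended were those of Eif4b (0.44, adjusted p = 0.0644), Eif3m (0.43, adjusted p = 0.0659), Eef2 (0.42, adjusted p = 0.0729), Eif3c (0.45, adjusted p = 0.0758) and Eif4g1 (0.35, adjusted p = 0.148), with Eif1 (0.12, adjusted p = 0.658), Eif2b1 (0.34, adjusted p = 0.173), Eif2b3 (0.40, adjusted p = 0.0764) and Eif3b (0.30, adjusted p = 0.186). The falls that ended were those of Eef1e1 (−0.70, adjusted p = 0.0890), Eif2ak2 (−0.71, adjusted p = 0.150), Eef2k (−0.35, adjusted p = 0.152), Eef1akmt1 (−0.44, adjusted p = 0.189) and Eif5a (−0.30, adjusted p = 0.212). In p110β controls 4 of 4 adipocyte and 3 of 5 slow-fibre markers tested rose on fasting, and their part in these values was not tested.

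Genes of the eIF2 cycle were called in every fasting comparison, beside 11.6–19% of all genes higher and 9.91–18.9% lower in a comparison. In M-p110αKO the call was of Eif2b5 alone. Of 6 genes grouped under eIF2, Eif2a and Eif2d encode factors that are not subunits of eIF2. In either genotype of the p110α line 0 of the 6 were called, in p110β controls 1 and in M-p110βKO 3, all upward. Those 3 were Eif2a, Eif2s3x and Eif2s3y. Eif2s3x, the X-linked gene of the γ subunit, went from 6.88, 7.93 and 8.40 to 13.2, 14.2 and 13.5 CPM in p110β controls and from 10.4, 9.40, 7.00 and 8.84 to 17.3, 16.1, 12.1 and 14.0 in M-p110βKO. These groups did not overlap, at 0.83 ± 0.17 (SE, adjusted p = 0.00162) and 0.74 ± 0.15 (SE, adjusted p = 7.25e-04). Its Y-linked copy Eif2s3y may share its reads, and their summed level went from 86.3 ± 9.55 to 77.7 ± 11.5 CPM (SD) in p110β controls, downward, and from 71.1 ± 7.23 to 118 ± 13.9 in M-p110βKO. Most of these sums was Eif2s3y, at means of 78.6 and 64.1 CPM in controls and 62.1 and 103 in M-p110βKO. Of the 5 eIF2B genes 1 rose and 1 fell in p110α controls, 1 rose in M-p110αKO, 2 rose in p110β controls, and 4 rose and 1 fell in M-p110βKO. Eif2b3 rose in 3 of the 4 comparisons, in p110α controls by 0.36 ± 0.10 (SE, adjusted p = 0.0139), a call that ended with GC and length offsets (0.25, adjusted p = 0.0938). In p110β controls its rise of 0.29 (adjusted p = 0.0456) was kept in 1 of 6 alternatives. Eif2b2 was the one that fell in M-p110βKO (−0.37, log2) and in p110α controls (−0.55 ± 0.13 SE, adjusted p = 0.0039), and both calls ended with the offsets (−0.14, adjusted p = 0.287, and −0.32, adjusted p = 0.0514). Eif2b5, the catalytic subunit, rose in M-p110αKO from 103, 99.8, 89.8 and 79.8 to 161, 132 and 176 CPM, a change of 0.75 ± 0.14 (SE, adjusted p = 9.66e-04). Its value in p110α controls was 0.25 with no call, and the interaction was not called.

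The 4 kinases of eIF2 did not move together. Eif2ak4, encoding GCN2, which senses uncharged tRNA, rose from 14.5, 10.3, 11.9 and 12.3 to 17.5, 14.2, 19.4 and 20.6 CPM in p110α controls, with 1 fasted library at 14.2 just under the highest fed one. The change was 0.54 ± 0.15 (SE, adjusted p = 0.012), and the gene rose in p110β controls (0.48 ± 0.14 SE, adjusted p = 0.0192) and M-p110βKO (0.60 ± 0.13 SE, adjusted p = 0.00111). Eif2ak2, encoding PKR, which double-stranded RNA activates, fell in p110β controls (−0.74 ± 0.21 SE, adjusted p = 0.0148) and M-p110βKO (−0.71 ± 0.18 SE, adjusted p = 0.00548). Macrophage and fibroblast markers were low in the latter group: 6 of 6 fibroblast genes tested fell on fasting there, with summed levels of 151.7–222 against 370.2–541 CPM, and 4 of 4 macrophage genes tested, at 7.86–8.68 against 12.9–23.9 CPM. In p110β controls 2 of 6 fibroblast genes and 0 macrophage genes fell, and the part of these cells in the Eif2ak2 values was not tested. Eif2ak1 and Eif2ak3 were called in no fasting comparison.

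Among elongation factors falls outnumbered rises. Of the 7 genes 4 fell in p110α controls, 2 in M-p110αKO, 1 in p110β controls (Eef1e1, a scaffold protein of the tRNA synthetase complex) and 3 in M-p110βKO, and the 1 rise was Eef2 in p110β controls. All genes tested gave 14.7%, 9.91%, 12.4% and 18.9% lower in these comparisons, and 14.5% higher in p110β controls. The Eef1e1 call was kept in 2 of 6 alternatives (with GC and length offsets −0.46, adjusted p = 0.0552). Eef1g read 76.5, 75.3, 60.8 and 94.1 CPM in fed and 55.4, 54.1, 50.4 and 60.8 in fasted p110α controls. In M-p110αKO it went from 74.9, 95.4, 106 and 86.0 to 49.3, 70.1 and 55.5. Fasted M-p110αKO lay below all fed M-p110αKO, while in controls the highest fasted and the lowest fed library were level at 60.8, and the falls were −0.48 ± 0.14 (SE, adjusted p = 0.0142) and −0.63 ± 0.15 (SE, adjusted p = 0.00709). M-p110βKO gave −0.54 ± 0.14 (SE, adjusted p = 0.00679), and p110β controls, from 64.2, 64.1 and 80.3 to 67.3, 62.3 and 49.3 CPM, −0.21 ± 0.17 (SE, adjusted p = 0.365). Eef1d fell in p110α controls (−0.61 ± 0.15 SE, adjusted p = 0.00563) and M-p110βKO (−0.34 ± 0.12 SE, adjusted p = 0.0402), the latter not without the low-count filter. Eef1b2 fell in p110α controls (−0.43 ± 0.14 SE, adjusted p = 0.028) and M-p110αKO (−0.49 ± 0.15 SE, adjusted p = 0.0298), the latter not with GC and length offsets.

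Eef2, the most abundant of all, read in p110α controls 1524, 1507, 1479 and 1508 CPM when fed and 1586, 1604, 1500.4 and 1472 when fasted, ranges that overlap, with a change of 0.03 ± 0.10 (SE, adjusted p = 0.86). In p110β controls it rose from 1568, 1523 and 1682 to 2292, 2003 and 2112. Those groups were apart, at 0.44 ± 0.11 (SE, adjusted p = 0.00709), while M-p110βKO gave 0.23 ± 0.10 (SE, adjusted p = 0.0684). Its kinase Eef2k fell, from 95.9, 97.5, 103 and 124 to 72.9, 70.0, 77.7 and 69.9 CPM in p110α controls (−0.54 ± 0.10 SE, adjusted p = 8.43e-04), and fell in M-p110αKO (−0.44, log2) and p110β controls (−0.33). M-p110βKO, at −0.21, was not called. Eif5a, which eases elongation as well as initiation, fell in p110α controls (−0.47 ± 0.11 SE, adjusted p = 0.00402), p110β controls (−0.29 ± 0.10 SE, adjusted p = 0.0451) and M-p110βKO (−0.49 ± 0.09 SE, adjusted p = 3.11e-04). With GC and length offsets these were −0.29 (adjusted p = 0.0357), −0.23 (adjusted p = 0.105) and −0.28 (adjusted p = 0.0188), and the call in p110β controls was kept in 2 of 6 alternatives. The methyltransferase genes Eef1akmt1, which acts on eEF1A, and Eef2kmt, which acts on eEF2, each fell in 2 of the 4 comparisons. Both Eef1akmt1 calls, in the p110β line, ended with the offsets (−0.40, adjusted p = 0.0509, in controls and −0.18, adjusted p = 0.285, in M-p110βKO), as did that of Eef2kmt in p110α controls (−0.48, adjusted p = 0.0965). Eif1 rose in p110β controls (0.37 ± 0.12 SE, adjusted p = 0.0272), a call kept in 3 of 6 alternatives, and was called in none of the other 3.

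A list of 9 members was read as TOP mRNAs, which start with a run of pyrimidines and are translated under mTORC1 control. The list need not be complete, and other members may be TOP mRNAs too. Of these 9 genes (Eef1a1, Eef1a2, Eef1b2, Eef1d, Eef1g, Eef2, Eif3e, Eif3f and Eif3h) 4 fell and 0 rose in p110α controls, 2 and 0 in M-p110αKO, 0 and 1 in p110β controls, and 4 and 0 in M-p110βKO. Over all genes tested 14.7%, 9.91%, 12.4% and 18.9% fell and 15.4%, 11.6%, 14.5% and 19% rose in these comparisons. In M-p110βKO the calls of Eef1a2 (−0.07, adjusted p = 0.623) and Eif3f (−0.18, adjusted p = 0.106) ended with GC and length offsets. Those of Eif3f and Eef1d ended there without the low-count filter. Median log2 fold changes of the 9 were −0.27, −0.23, −0.11 and −0.28, where the medians of all 62 were at or above 0.01. Eif3h gave −0.27, −0.33, −0.17 and −0.30 (log2) and passed in none.

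**Figure D3:**
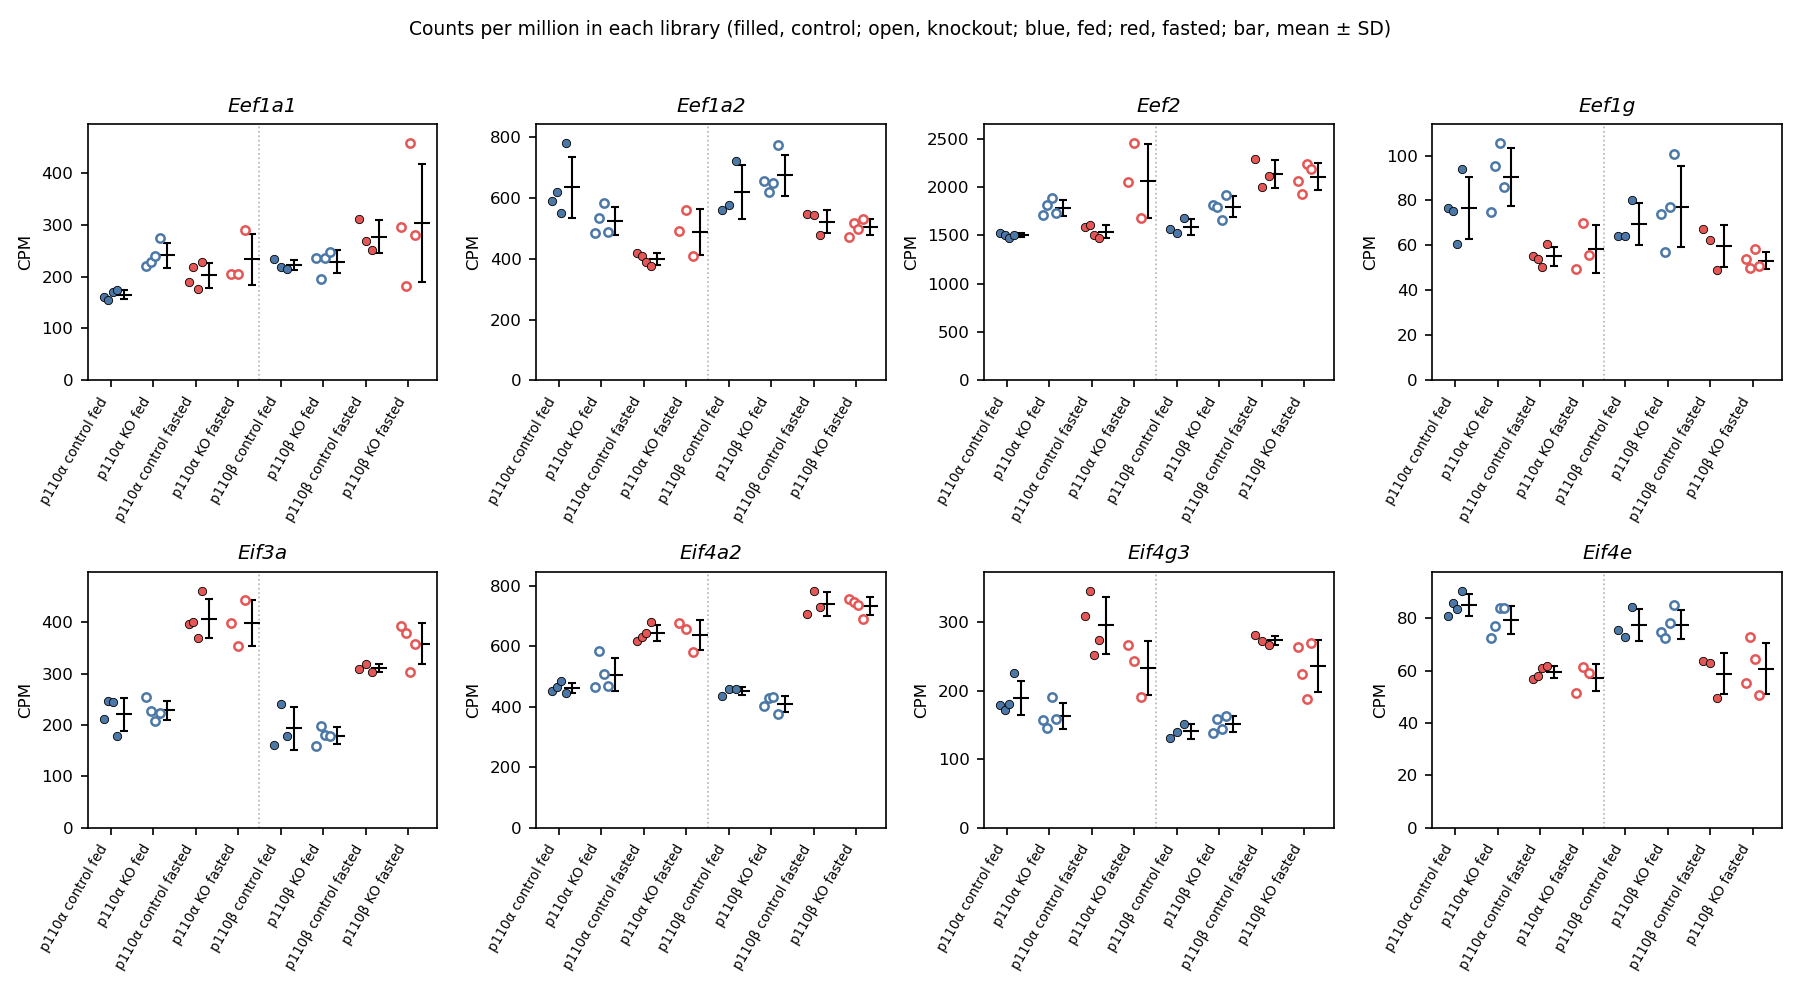
CPM in each library (points, filled for controls and open for knockouts, blue for fed and red for fasted) with mean and SD (bars) for 8 genes in the 8 groups. Eif3a, Eif4a2 and Eif4g3 sit higher and Eif4e lower in fasted muscle, and 1 fasted M-p110βKO library stands at 457 CPM of Eef1a1.

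The pair of eEF1A genes was read in every group. Eef1a2 fell on fasting in p110α controls from 591, 618, 552 and 781 to 420.1, 409, 390.0 and 378 CPM. Every fasted library lay under every fed one, at −0.68 ± 0.12 (SE, adjusted p = 3.49e-04), although GC and length offsets brought the change to −0.33 (adjusted p = 0.00884). Of 7 muscle fibre markers 4 fell in the same comparison, at 128287–145810 against 146766–175568 CPM summed, and their part in the Eef1a2 value was not tested. In M-p110βKO, from 657, 621, 649 and 775 to 473, 517, 498 and 532 CPM, it was −0.42 ± 0.11 (SE, adjusted p = 0.0044), a call that those offsets ended (−0.07, adjusted p = 0.623). M-p110αKO went from 486, 535, 585 and 489 to 492, 560.3 and 410.0, a change of −0.10 ± 0.13 (SE, adjusted p = 0.607), and p110β controls from 561, 577 and 722 to 546, 544 and 478, a change of −0.24 ± 0.12 (SE, adjusted p = 0.164). The interaction in the p110α line was 0.58 ± 0.17 (SE, adjusted p = 0.133) in edgeR and passed in DESeq2 (0.58, adjusted p = 0.0498).

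Eef1a1 passed in no fasting comparison. Its 4 fed p110α controls read 161, 154, 169.6 and 174 CPM and the fasted ones 189, 218, 176 and 228, at 0.29 ± 0.12 (SE, adjusted p = 0.0772). Fed and fasted M-p110βKO read 236, 196, 235 and 247, and 295, 182, 457 and 279.9, at 0.41 ± 0.18 (SE, adjusted p = 0.0854). The fasted library at 457 CPM carried this value: without it the change was 0.16 (adjusted p = 0.398). Over the 8 fits that left out 1 library each the change was 0.16 to 0.59 and passed in 1, where the adjusted p was 0.00334. p110β controls gave 0.32 ± 0.21 (SE, adjusted p = 0.272) and M-p110αKO −0.04 ± 0.13 (SE, adjusted p = 0.847). In order of mean level Eef1a1 had 165 ± 8.58 CPM (SD) in fed p110α controls, 203 ± 24.1 in fasted p110α controls, 223 ± 10.1 in fed p110β controls, 229 ± 22.4 in fed M-p110βKO, 234 ± 49.0 in fasted M-p110αKO, 241 ± 24.0 in fed M-p110αKO, 277 ± 31.3 in fasted p110β controls and 304 ± 114 in fasted M-p110βKO. Neighbours in that order overlapped, except the lowest pair.

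The ratio of Eef1a2 to Eef1a1 reads compares the 2 genes within a library. It averaged 3.85 ± 0.527 (SD, n = 4) in fed p110α controls and 1.99 ± 0.275 (n = 4) in the fasted ones, with no overlap (3.25–4.50 and 1.66–2.23). Fed M-p110αKO stood at 2.19 ± 0.290 (n = 4), also below every fed control, and fasted M-p110αKO at 2.18 ± 0.683 (n = 3). Differences in the mean log2 ratio were −0.95 for fasting in controls and −0.82 for the knockout in fed muscle, each with an exact two-sided permutation p = 0.0286, the smallest that 4 against 4 allows, and 0.114 after adjustment over the 8 comparisons made. In M-p110αKO fasting changed it by −0.05 (exact permutation p = 0.857). Fed controls and knockouts of the p110β line had 2.80 ± 0.498 (n = 3) and 2.96 ± 0.219 (n = 4), and the ratios were 1.90 ± 0.140 (n = 3) and 1.86 ± 0.735 (n = 4) once fasted. Fasting gave −0.55 in p110β controls (exact permutation p = 0.1, the smallest that 3 against 3 allows) and −0.75 in M-p110βKO (p = 0.0857), and both were 0.2 after adjustment. None of the 8 passed once adjusted. Per kilobase the fed p110α control ratio was 4.61 ± 0.630.

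**Figure D4:**
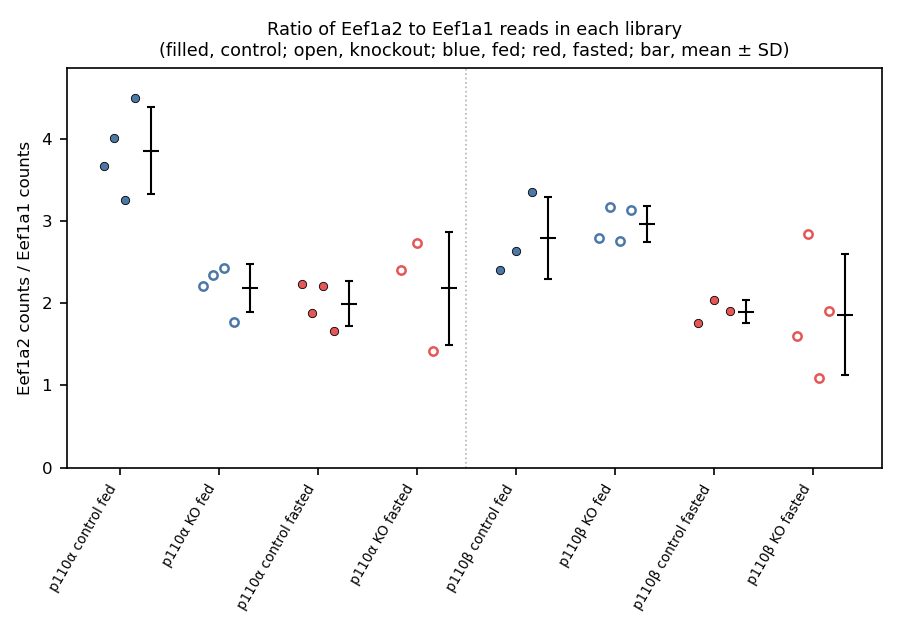
Ratio of Eef1a2 to Eef1a1 reads in each library (points, filled for controls and open for knockouts, blue for fed and red for fasted) with mean and SD (bars). Fed p110α controls lie at 3.25–4.50, above all fed M-p110αKO (1.78–2.43) and all fasted p110α controls (1.66–2.23).

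Loss of p110α gave few calls. In fed muscle 1 of the 62 rose and 0 fell, against 0.193% and 0.418% of all genes. The 1 was Eef1a1, at 221, 228, 240.4 and 275 CPM in M-p110αKO against 161, 154, 169.6 and 174 in controls. The groups did not overlap and the log2 fold change was 0.55 ± 0.12 (SE, adjusted p = 0.0477), but the adjusted p was 0.0522–0.138 in the 8 fits that left out 1 library each, and 0.0856 with GC and length offsets (0.47). In fed muscle Eef1a2 was −0.28 ± 0.12 (SE, adjusted p = 0.35) and Eef2, at 1709.6, 1814, 1892 and 1732 against 1524, 1507, 1479 and 1508 CPM, 0.25 ± 0.10 (SE, adjusted p = 0.341). Summed muscle fibre markers were 121410–142429 CPM in these M-p110αKO mice, and their fed controls held 146766–175568, with 0 of 7 genes called, and their part in the Eef1a1 value was not tested. Fibroblast markers, 258.2–637 against 207.4–394 CPM, overlapped, with 0 of 6 called.

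In fasted muscle 2 of the 62 rose and 1 fell in M-p110αKO, near the 3.02% and 3.51% of all genes. Eef2 read 2053, 2457 and 1682 CPM against 1586, 1604, 1500.4 and 1472 in controls, apart by the gap from 1604 to 1682, at 0.43 ± 0.11 (SE, adjusted p = 0.0269). Eif2b5 read 161, 132 and 176 against 112, 114, 113 and 111, at 0.48 ± 0.14 (SE, adjusted p = 0.0432). Eif1ax, X-linked and encoding eIF1A, which helps scan for the start codon, was lower at 106, 105 and 108 against 141, 142, 157 and 137, at −0.43 ± 0.09 (SE, adjusted p = 0.013). Groups did not overlap for any of the 3. All 3 calls ended with GC and length offsets, at 0.25, 0.35 and −0.22 with adjusted p of 0.154, 0.211 and 0.216, and the Eef2 and Eif2b5 calls were kept in 1 of 7 fits that left out a library each, the Eif1ax call in 6 of 7. The interaction test, given with the fasting counts, called 0 of the 62.

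Loss of p110β gave 0 calls among the 62 in fed muscle, as for all 12249 genes (0% higher and 0% lower), with an unadjusted p under 0.05 for 2 upward and 1 downward and 0 calls in DESeq2. In fasted muscle 1 rose and 0 fell, against 0.294% and 0.596%. It was Eif2s3y, the Y-linked gene of the eIF2γ subunit, at 109, 118, 95.4 and 91.3 CPM in M-p110βKO and 58.3, 56.4 and 77.5 in controls. The groups were apart, at 0.69 ± 0.14 (SE, adjusted p = 0.0183), while fed M-p110βKO read lower than fed controls, 69.0, 54.4, 67.5 and 57.5 against 70.5, 88.4 and 76.8. The interaction was 1.02 ± 0.19 (SE, adjusted p = 0.0407), against a background of 0.0408% higher and 0.0653% lower. Its X-linked copy Eif2s3x gave 0.12 with no call. Other Y-linked genes, chosen after these values were seen, did not share the size of this knockout difference in fasted muscle. Fasted M-p110βKO and controls had means of 215 and 173 CPM of Ddx3y, 20.2 and 19.2 of Uty, and 11.9 and 13.4 of Kdm5d. Fed means of the same genes were 113 and 120, 10.9 and 15.3, and 9.51 and 11.8. Ddx3y and Uty thus rose with Eif2s3y (62.1 to 103) from fed to fasted M-p110βKO. Adipocyte and slow-fibre markers differed between fasted M-p110βKO and fasted controls, with 3 of 4 and 2 of 5 genes tested lower in M-p110βKO. Their part in the Eif2s3y value was not tested. Without the adipocyte-rich pair of controls, which leaves 1, the Eif2s3y value was 0.41 (adjusted p = 0.658) and the interaction 0.75 (adjusted p = 0.446). The interaction call was kept in 3 of 14 fits that left out 1 library each (adjusted p up to 0.183). A fit of the compared groups alone gave 0.69 with an adjusted p of 0.121.

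**Figure D5:**
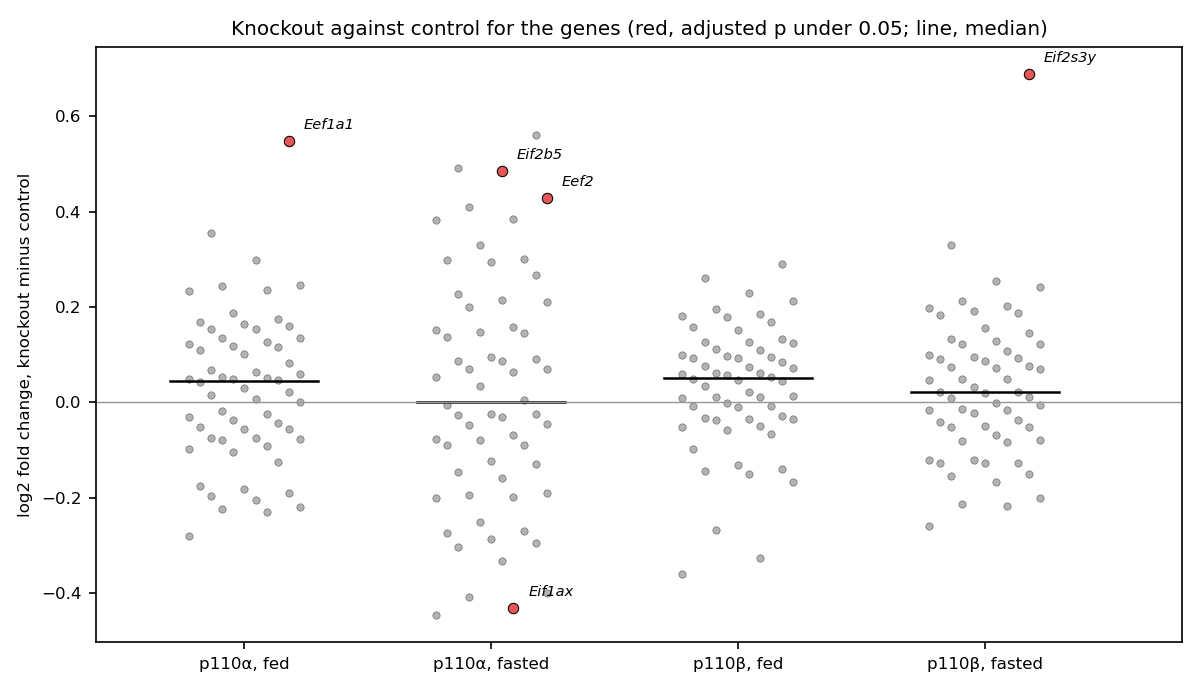
Log2 fold change of knockout against control for the 62 genes (points, red where the adjusted p was under 0.05) with the median (line) in fed and fasted muscle of both lines. Medians run from −0.00 to 0.05, and the 5 red points are Eef1a1, Eif2b5, Eef2, Eif1ax and Eif2s3y.

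Between fed controls of the lines 4 of the 62 were higher and 9 lower in the p110β line (6.45% and 14.5%), against 9.33% and 10.9% of 12760 genes. Higher were Eif3k (0.62 ± 0.13 SE, adjusted p = 0.00162), Eif3g (0.60 ± 0.13 SE, adjusted p = 0.00245), Eef1d (0.58 ± 0.15 SE, adjusted p = 0.008) and Eif6 (0.50 ± 0.14 SE, adjusted p = 0.0109), the factor that keeps the large ribosomal subunit apart until it is needed. Eif2s3x was lower, 6.88, 7.93 and 8.40 CPM against 25.5, 16.1, 24.3 and 21.4 in the p110α line, with no overlap, at −1.49 ± 0.19 (SE, adjusted p = 5.28e-06). Summed with Eif2s3y it was 86.3 ± 9.55 against 94.4 ± 8.08 CPM (SD), a log2 difference of −0.13 between the means. Eif2s3y alone had means of 78.6 and 72.5 CPM, so the sum mostly follows Eif2s3y and cannot show whether reads are shared. Eif5, which triggers GTP hydrolysis on eIF2, read 122, 117 and 134 against 193, 168, 206 and 223, also apart, at −0.67 ± 0.12 (SE, adjusted p = 3.82e-04). Also lower in the p110β line were Eif4g1, Eif4g2, Eif4g3, Eif4a1, Eif1ax and Eif3c, at −0.29 to −0.43, and Eif3j2. The calls of Eif1ax and Eif3c were kept in 3 of 6 alternatives, and those of Eif4g1 and Eif4a1 ended without the low-count filter. With the offsets the calls of Eif1ax (−0.22, adjusted p = 0.108) and Eif4g2 (−0.24, adjusted p = 0.116) ended, and Eif3g went to 0.34 (adjusted p = 0.0387). Eif6 lost its call in 3 alternatives (with offsets 0.27, adjusted p = 0.123).

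Paralogues that may share reads limit some of these values, since the treatment of reads that map to several genes is not given in the sources used here. This holds for Eif2s3x and Eif2s3y, given above with their sums, and for Eif3j1 and Eif3j2. The latter encode near-identical forms of the loosely bound eIF3j subunit. Eif3j2 in fed p110α controls read 15.3, 34.3, 19.3 and 3.60 CPM and in fed p110β controls 3.02, 5.91 and 2.64, at −2.26 ± 0.62 (SE, adjusted p = 0.0113). Eif3j1 in the same p110α libraries read 26.4, 17.9, 33.1 and 53.7, high where Eif3j2 was low. Summed, the pair had 50.9 ± 6.59 CPM (SD) in p110α and 46.5 ± 3.60 in p110β fed controls, a log2 difference of −0.13 between the means. Both sums were chosen after these values were seen. On fasting it read 74.2 ± 3.46 in p110α controls, 64.4 ± 4.07 in M-p110αKO, 74.0 ± 8.06 in p110β controls and 87.3 ± 14.5 in M-p110βKO. Eif3j1 alone rose in p110α controls (0.91 ± 0.24 SE, adjusted p = 0.00849), p110β controls (0.70 ± 0.14 SE, adjusted p = 0.00162) and M-p110βKO (0.94 ± 0.13 SE, adjusted p = 1.58e-05). Reads were also assigned to processed pseudogenes: Eif3s6-ps2, a copy of Eif3e, had group means of 5.10–9.32 CPM in the p110α line and 0.0330–0.0846 in the p110β line, and Eif5al3-ps, a copy of Eif5a, 3.65–5.85 and 0–0.322. Eif3e itself had 127 and Eif5a 229.9 CPM on average.

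As a share of all assigned reads the 62 genes took 0.977 ± 0.0341% (SD, n = 4) in fed and 1.04 ± 0.0533% (n = 4) in fasted p110α controls, 1.02 ± 0.0514% and 1.12 ± 0.0918% in fed and fasted M-p110αKO, 1.00 ± 0.00964% and 1.18 ± 0.0585% in p110β controls, and 1.01 ± 0.0210% and 1.15 ± 0.0262% in M-p110βKO. Fasted libraries of the p110β line all lay above the fed ones of their genotype. The difference was 0.143 percentage points in M-p110βKO (exact two-sided permutation p = 0.0286, the smallest for 4 against 4) and 0.173 in controls (exact permutation p = 0.1, the smallest for 3 against 3). After adjustment over the 16 share tests these were 0.229 and 0.305, and none passed. Leaving Eef1a2 out, the shares in p110α controls were 0.915 ± 0.0367% and 1.00 ± 0.0522% (exact permutation p = 0.0571, adjusted 0.305).

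Regulators of the same steps outside the family were read from the same fits. Of 28 regulators 26 were tested: 6 rose and 2 fell on fasting in p110α controls, 5 and 4 in M-p110αKO, 6 and 2 in p110β controls, and 5 and 1 in M-p110βKO. Beside these stand 15.4%, 11.6%, 14.5% and 19% of all genes higher, and 14.7%, 9.91%, 12.4% and 18.9% lower. Eif4ebp1, the repressor that holds eIF4E from eIF4G, rose in all 4 comparisons, by 1.39 ± 0.22 (SE, adjusted p = 1.84e-04) in p110α controls, 1.40 ± 0.23 (SE, adjusted p = 4.85e-04) in M-p110αKO, 2.56 ± 0.20 (SE, adjusted p = 5.93e-08) in p110β controls and 2.07 ± 0.17 (SE, adjusted p = 6.07e-08) in M-p110βKO. In p110α controls its mean level went from 16.0 ± 7.37 to 42.8 ± 7.31 CPM (SD), and in p110β controls from 12.7 ± 1.65 to 74.9 ± 4.85. Mknk2, a kinase of eIF4E, rose by 0.91, 1.15, 1.29 and 1.27 (log2). Ppp1r15a, which encodes the stress-induced subunit that turns a phosphatase on eIF2, rose by 2.13, 1.77, 1.89 and 1.38, and its constitutive partner Ppp1r15b by 0.41, 0.39, 0.74 and 0.67. Denr, which aids reinitiation, fell in p110α controls (−0.39), M-p110αKO (−0.55) and p110β controls (−0.61). Knockout of p110α in fasted muscle called Dph3 (−0.63 ± 0.16 SE, adjusted p = 0.0273), needed for the diphthamide of eEF2, and Paip1 (−0.41 ± 0.11 SE, adjusted p = 0.0282), a partner of the poly(A)-binding protein, both lower, and in fed muscle it called 0 of the 26. Of all genes 3.02% were higher and 3.51% lower in fasted, and 0.193% and 0.418% in fed M-p110αKO.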

How the data were processed

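TA muscle RNA of 29 mice was made into libraries with the NEBNext mRNA kit, and the deposited values are counts of reads per gene, which the authors made with STAR on GRCm38 and Subread featureCounts. For versions, annotation release, strand setting and multi-mapped reads, nothing is given in the sources used here. Of 48023 gene IDs 47310 matched a GENCODE symbol, and the 713 others held 0.0292% of counts. Depth was 5351935 to 11653239 reads per library, which limits the precision of genes of a few CPM. Groups came from the sample labels. In all 39 pairs of libraries within a group the counts differed beyond sampling noise (chi-square per degree of freedom of 3.92 to 31.0).

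Each line was fitted over its 4 groups, and both lines together for the line comparisons, with the quasi-likelihood test of edgeR 4.0.16 in R 4.3.3. Low genes were filtered with a minimum count of 10 and a total of 15, TMM factors were used, and Benjamini-Hochberg adjustment ran over all genes tested at 0.05. CPM were TMM-scaled. The ratio and share tests were exact two-sided permutation tests (scipy 1.17.1). The alternatives used upper-quartile factors, the size factors of DESeq2 1.42.0 or its Wald test, every gene with at least 1 read, offsets for GC content and exon length (spline, 5 degrees of freedom), only the groups compared, and all libraries but 1 in turn. The fits were tested on simulated data. Members and lists were chosen with earlier results of these data known. Genes are named where they are Eef1a1 or Eef1a2, among the up to 10 members with the lowest adjusted p in a comparison, the 2 most abundant of a role, related genes with the lowest adjusted p (up to 4), or members with a paralogue or pseudogene; Eif3b, Eif3d, Eif3f, Eif3h, Eif3i, Eif4a3, Eif4e2 and others beyond these were named after their values were seen.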

Additional observations from a re-analysis of the deposited data

Results flagged for a closer look

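In 13 of 185 checks of a gene in a group of 4 libraries, 1 library stood apart from the other 3, and chance alone marks about 1 in 20 such groups. Among p110α mice, fed control 4 had 62.0 CPM of Eif2s3y (the others 75.2–77.1) and 226 of Eif4g3 (172–181). Fed M-p110αKO 8 had 122 CPM of Eif1ax (135–136) and 296 of Eif4b (366–372), and fed M-p110αKO 7 had 232 of Eif5 (172–182). Fasted control 11 had 46.8 CPM of Eif3j1 (65.2–68.7), 22.9 of Eif3j2 (7.50–8.93) and 848 of Eif4g1 (926–939.6), and fasted control 10 had 219 of Eif5 (204–205). In the p110β line fed M-p110βKO 19 had 95.1 CPM of Eif1ax (121–126), fed M-p110βKO 20 had 105 of Eif3k (116–117), fed M-p110βKO 22 had 22.9 of Eif6 (17.8–18.6), and fasted M-p110βKO 27 had 132 of Eif1ax (104–107).

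The p110β knockout effect on Eif2s3y passed the test of a difference between fed and fasted muscle, with an interaction of 1.02 (log2, edgeR adjusted p = 0.0407). That call was kept in 3 of 14 fits that left out 1 library (adjusted p up to 0.183), and it ended with upper-quartile factors, with GC and length offsets (0.78, adjusted p = 0.197) and without the adipocyte-rich pair of fasted controls (0.75, adjusted p = 0.446). All fed M-p110βKO lay below fed controls (−0.33) and all fasted M-p110βKO above fasted controls (0.69). In fasted muscle Eif2s2 was lower in every M-p110αKO (−0.45) and higher in every M-p110βKO (0.15) than in the controls of its line, a difference that was not tested.

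Reads were also assigned to pseudogenes of these factors, with means over the libraries of 1.18 CPM for Eif4a-ps4, 2.36 for Eif5al3-ps and 3.56 for Eif3s6-ps2.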

How the results depend on the processing

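Counts are of the 62 genes called. Offsets for GC content and exon length left 0 calls for the fed and 0 for the fasted M-p110αKO against controls and 0 for the p110β interaction, which upper-quartile factors also brought to 0. Without the filter there were 5 calls for fasted M-p110αKO, 1 for the p110α interaction, 15 for fasting in p110β controls and 1 for the difference between the lines' fasting responses. DESeq2 gave 5, 1 and 1 for the first, second and last of these. Without the filter the shares of all genes, higher and lower, were 1.79% and 2.96%, 0.554% and 1.19%, 7.39% and 5.51%, and 1.57% and 0.993%. With DESeq2 they were 3.97% and 4.9%, 0.917% and 0.989%, and 2.15% and 0.839%. With the filter 14.5% and 12.4% were called for fasting in p110β controls. The compared groups alone gave 0 for fasted M-p110βKO. Without 2 fasted p110β controls, an alternative chosen after seeing the data, there were 9 for fasting in p110β controls, 0 for fasted M-p110βKO and 0 for the interaction. The causes were not tested, but that group then has 1 library, assumed to vary like the others. Leaving out each library gave 0 to 0 calls for fed M-p110αKO, 1 to 4 for fasted M-p110αKO, 16 to 19 and 6 to 13 for fasting in p110α controls and M-p110αKO (6 without library 13), and 0 to 0 for the interaction. For the p110β line it gave 0 to 0 and 0 to 1 for fed and fasted M-p110βKO, 15 to 19 and 23 to 32 for fasting in controls and M-p110βKO, and 0 to 1 for the interaction. The lines gave 7 to 13 (7 without library 16 or 18), and their fasting difference 0 to 1. Leaving out a library turned the sign of uncalled values of Eef1a1 (fasting in M-p110αKO, −0.25 to 0.04; fasted M-p110βKO, −0.12 to 0.31; the p110β interaction, −0.17 to 0.27; the lines' fasting difference, −0.05 to 0.11), of Eef1a2 between the lines (−0.19 to 0.08), of the log2 ratio for fasting in M-p110αKO (−0.24 to 0.24), fasted M-p110αKO (−0.10 to 0.37), fasted M-p110βKO (−0.34 to 0.12) and fed M-p110βKO (−0.01 to 0.23), and of the share for fed M-p110βKO (−0.00632 to 0.00925 points; without Eef1a2 −0.00811 to 0.00690). The split for fasted M-p110αKO went from 2 up and 1 down to 1 up and 2 down in the compared groups alone. Of the calls, 14 of 18, 7 of 12, 12 of 23 and 20 of 32 held in all 6 alternatives for fasting in p110α controls, M-p110αKO, p110β controls and M-p110βKO, and 0 of the knockout calls did. No paired analysis was possible because the labels number the mice in 1 series and the groups share no number.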

Other observations

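Translation factors outside the family were read from the same fits. Of 5 termination and recycling genes tested 1 rose on fasting in p110α controls, 1 in M-p110αKO, 2 in p110β controls and 3 in M-p110βKO, and none fell in these 4 comparisons. Of all genes tested 15.4%, 11.6%, 14.5% and 19% rose in these comparisons, and 14.7%, 9.91%, 12.4% and 18.9% fell. Abce1, which splits ribosomes after termination, rose in each, by 0.44 ± 0.11 (SE, edgeR adjusted p = 0.00504), 0.34 ± 0.12 (0.0450), 0.51 ± 0.14 (0.0121) and 0.71 ± 0.12 (0.000189) on the log2 scale. Gspt1, a release factor GTPase, rose in p110β controls (0.39, adjusted p = 0.0281) and M-p110βKO (0.53, adjusted p = 0.000926), and Etf1, which reads the stop codon, in M-p110βKO (0.34, adjusted p = 0.0105).

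Of 10 mitochondrial translation factors 1 fell in each of the 4 comparisons and 1 rose in M-p110βKO. Falls took 14.7%, 9.91%, 12.4% and 18.9% of all genes in these comparisons, and rises took 19% in M-p110βKO. Tsfm, the exchange factor of the mitochondrial elongation factor Tu, fell in p110α controls (−0.56, adjusted p = 0.00217) and M-p110βKO (−0.51, adjusted p = 0.00710). Mtif2 fell in M-p110αKO (−0.43, adjusted p = 0.0334) and Mtrf1l in p110β controls (−0.60, adjusted p = 0.0383), and Gfm1 rose in M-p110βKO (0.28, adjusted p = 0.0276).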
